A study of Mus musculus with 8 samples.

Results

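The genes described here are 7 genes discussed as markers of the sinus venosus and the pacemaker region: Isl1, Shox2, Smoc1, Smoc2, Vsnl1, Mab21l2 and Cpne5. They were found by their name on the array, which gave 11 probes, out of 41174 non-control probes for 27729 gene names. Mab21l2 and Smoc2 were selected on their low GFP-high signal on these same arrays, so their difference between the groups is a description and was given no test. The other 5 genes were listed as region markers, with earlier results of these arrays known.

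The sinus venosus is the inflow chamber of the embryonic heart, and the sinus node, the primary pacemaker, forms where it joins the right atrium. Cells of this region keep a gene programme that differs from that of the working chambers, with transcription factors such as Isl1 and Shox2 at its base and slow conduction and automatic beating as its functions. Calcium-binding proteins, among them the calcium sensor encoded by Vsnl1, have been used beside these factors to mark the region.

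The arrays carried RNA from hearts of mouse embryos at E10.5 that bore the minK-GFP transgene, a bacterial artificial chromosome in which minK (Kcne1) sequences drive green fluorescent protein. Dissociated cells were sorted by fluorescence into GFP-high cells, labelled as cardiac conduction system, and GFP-low cells, labelled as chamber myocardium. Each group had 4 biological replicates, and every sample carried the transgene. The groups are therefore levels of 1 reporter in digested whole hearts, and no sample was dissected from the sinus venosus. The RNA input was 5 ng per sample, and 2 ug of the amplified product was labelled with 1 dye.

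Each value below is log2 of the background-subtracted, detrended signal minus the 75th percentile of its array, so 0 is the level of that percentile and a difference of 1 is a doubling. The scanner software marks a spot as well above background, and only such spots are called measured here. It puts a surrogate in place of signals that are not positive and significant over their background. Values at about -4 to -6 thus have no order among themselves. Levels of different probes are not compared with each other. Between 15735 spots (GFP-high replicate 3) and 22003 spots (GFP-low replicate 2) of 43379 were well above background, and the dimmest such signal lay between -3.40 and -1.70 on the 8 arrays. In both groups replicates 1 and 2 were on slide 1 and replicates 3 and 4 on slide 2. Kcne1 itself differed by 1.29 ± 0.35 (log2 GFP-high minus GFP-low, SE of the fit, limma adjusted p = 0.202).

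The probes decide what could be seen of each gene, so the first 30 bases of each deposited 60-base probe are shown, with the place of the probe on mouse build mm9 and its start in the transcript as the files give them. The 2 probes of Smoc2 lie next to each other, those of Vsnl1 lie further apart, and the first probe of Cpne5 is far from the other pair.
Isl1, start 2170, chr13:117088774-117088833, minus strand: cccccaaagatgtgtatagttattggttaa
Shox2, start 788, chr3:66779435-66779814, minus strand: agagctaagtgtagaaaacaggaaaatcaa
Smoc1, start 2798, chr12:82286760-82286819, plus strand: ctaggtgacatgctgattcagaggtccttc
Smoc2, start 1550, chr17:14540516-14540575, plus strand: atgaacggctgactactcaagacagttcct
Smoc2, start 1681, chr17:14540647-14540706, plus strand: gatatttaaacggactgttgtgatctgtga
Vsnl1, start 794, chr12:11333097-11333156, minus strand: acccttccattgtattacttctgcagtgtg
Vsnl1, start 1428, chr12:11332454-11332513, minus strand: agagctgttttggatgaatgcagtatacaa
Mab21l2, start 1865, chr3:86350281-86350340, minus strand: tgcacaaaaatgatcgtttccttccaaaca
Cpne5, start 223, chr17:29348691-29363144, minus strand: gacccactgtgtgtcatgtacactcaaggg
Cpne5, start 2909, chr17:29294874-29294933, minus strand: tgtctggtcctgtgcctgtctgagactgtc
Cpne5, start 3789, chr17:29293994-29294053, minus strand: acatggatcgctatcaccgtggatcatggt

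The intervals of the Shox2 probe (380 bases) and of the first Cpne5 probe (14454 bases) are longer than the probes themselves, and the other 9 probes map to an unbroken stretch of 60 bases. GC content was 35% in the probes of Isl1 and Mab21l2 and in the Vsnl1 probe at 1428, and 51.7% in the Cpne5 probe at 223.

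Measurement above background divided the 7 genes into 4 kinds. Isl1, Vsnl1 and Cpne5 were measured on all 8 arrays by at least 1 probe. Smoc2 and Mab21l2 were measured on all 4 GFP-low arrays and on no GFP-high array. Smoc1 was measured on 1 array of each group, and Shox2 on none. The test across genes was run on the 12875 genes measured on 4 or more of the 8 arrays, and 5 of the 7 were among them. Of those 12875, 18 genes (0.14%) passed at a limma adjusted p under 0.05, 9 higher in GFP-high (0.0699%) and 9 lower (0.0699%). That split depended on the processing, with 14 higher and 6 lower after normexp background correction, 12 and 3 after normexp with quantile scaling, 32 and 10 with a common floor, 10 and 1 among genes measured on all 8 arrays, and 3 and 8 with the slide as a block. With the probe that stood for each gene, none of Isl1, Vsnl1 and Cpne5 passed in limma or was under an unadjusted p of 0.05. The second Vsnl1 probe, given below, was under that unadjusted p and did not pass. In none of these 3 did all GFP-high arrays lie above all GFP-low arrays (5.86% of the tested genes) or all below them (3.08%). For scale, 9952 of the 27729 gene names on the array were measured on no array, and 9016 on all 8.

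**Figure D1:**
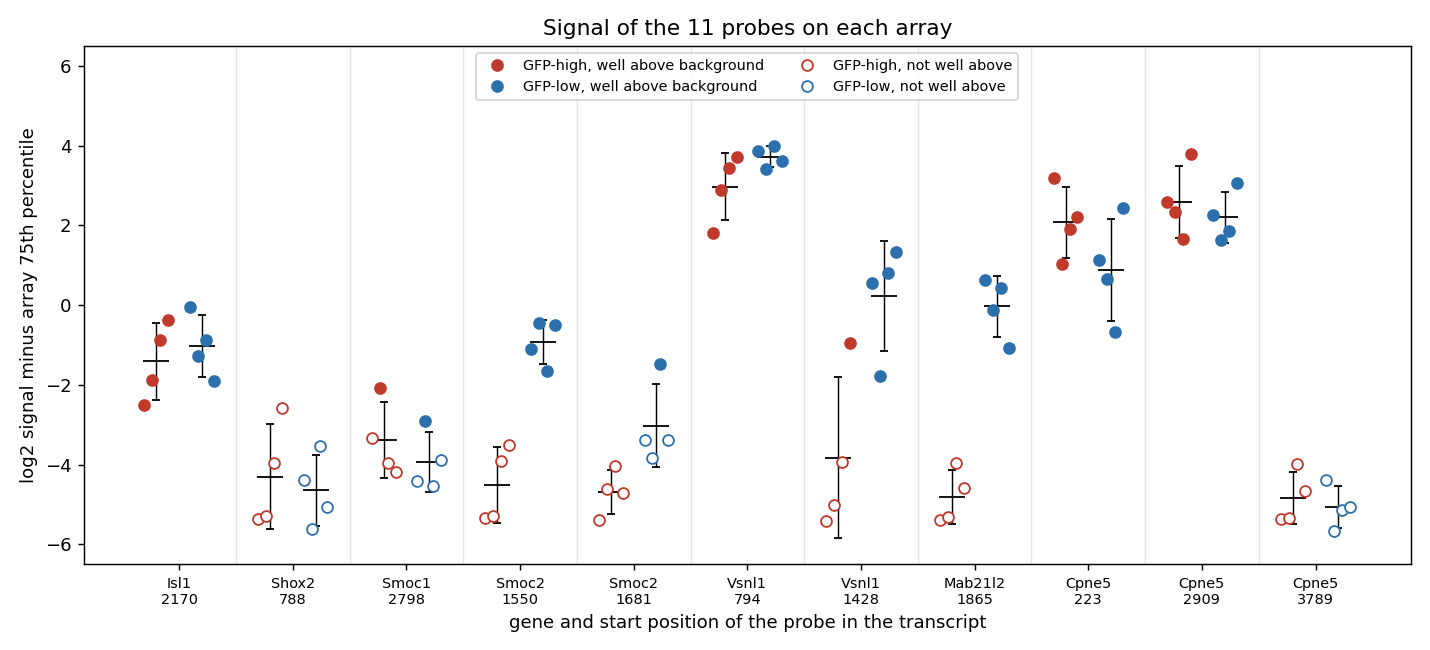
Log2 signal minus the array's 75th percentile for each of the 11 probes, named by gene and start in the transcript, with GFP-high arrays (red) left of GFP-low arrays (blue); filled points were well above background, open points were not, and bars give the mean and SD of 4 arrays. GFP-high and GFP-low points lie apart in both Smoc2 probes and in Mab21l2, whose GFP-high points are all open, and they overlap in the other 8 probes.

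Among the transcription factors, Isl1 encodes a LIM-homeodomain protein of second heart field progenitors that stays on in the sinus node. It read -2.5, -1.87, -0.88 and -0.37 in GFP-high replicates 1 to 4, against -0.05, -1.29, -0.86 and -1.90 in GFP-low replicates 1 to 4. The groups overlapped over most of their range: the lowest array was a GFP-high one and the highest a GFP-low one. The level averaged -1.41 ± 0.96 in GFP-high and -1.03 ± 0.77 in GFP-low (SD, n = 4 each). The difference was -0.38 ± 0.55 (log2, SE, limma adjusted p = 0.759), with a 95% interval from -1.64 to 0.88, which leaves room for differences of over 1 in the negative direction. In these sorted pools fewer cells of a type and less RNA per cell cannot be told apart.

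The Isl1 probe was printed in 10 spots on each array. The spots of 1 array differed by an SD of 0.066 to 0.16 on the log2 scale, which describes the noise within an array and not that between samples. All 74 spots that were used, out of 80, were well above background, and the other 6 were left out as outliers by the scanner software. On GFP-high replicate 1 the spots ran from -2.85 to -2.36, above the dimmest measured signal of that array at -3.14. Although measured on every array, Isl1 was dim. Its difference shrank to -0.065 with normexp and to -0.19 with a common floor under all arrays. Normexp works from raw spot means and local background and here adds an offset of 50 intensity units. That offset shrinks log2 differences between dim signals by construction.

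The sign of the Isl1 difference was not the same on the 2 slides. It was -1.51 on slide 1 and 0.75 on slide 2, and the change between slides was 2.27 ± 0.84 (SE). That change had a limma adjusted p of 1.0 over all tested genes. None of them passed this test in limma (smallest adjusted p 0.157), and 502 were under an unadjusted p of 0.05. With the slide as a block the Isl1 difference stayed at -0.38 ± 0.57 (limma adjusted p = 0.757).

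**Figure D2:**
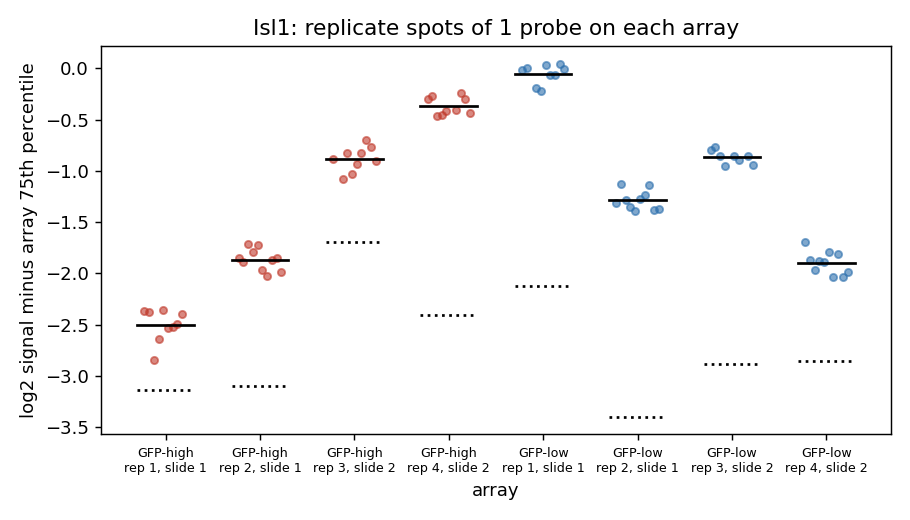
Log2 signal minus the array's 75th percentile for the replicate spots of the Isl1 probe on each array, GFP-high (red) left of GFP-low (blue), with the mean of the array as a solid line and its dimmest signal well above background as a dotted line. Spots of 1 array lie close together (SD 0.066 to 0.16), while array means run from -2.5 to -0.05.

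Shox2, the homeodomain factor that mice need to form the sinus node, was not detectable with its 1 probe. Its raw spot means were 44.1, 44.7, 44.4 and 71.8 intensity units in GFP-high, against subtracted backgrounds of 46.4, 43.6, 49.7 and 47.0. In GFP-low they were 45.2, 49.1, 66.5 and 50.6 against backgrounds of 51.4, 47.1, 47.1 and 53.7. Furthest above their backgrounds were GFP-high replicate 4 (by 24.7 units) and GFP-low replicate 3 (by 19.5). GFP-high replicate 2 and GFP-low replicate 2 stood above theirs by only 1.11 and 1.95. The laxer flag of the software asks only that a signal be positive and significant. By it, GFP-high replicate 4 and GFP-low replicate 3 counted as detected. The other 6 values were surrogates, and no fold is given for Shox2.

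Smoc1 and Smoc2 encode secreted, calcium-binding matrix proteins of the osteonectin (SPARC) family. Smoc1 read -3.33, -2.08, -3.95 and -4.18 in GFP-high and -4.42, -2.90, -4.54 and -3.87 in GFP-low. Only replicate 2 of each group was well above background, and these 2 are the arrays with the most measured spots of their groups. The laxer flag took 3 GFP-high and 3 GFP-low arrays. The groups overlapped, and no fold is given for Smoc1 either.

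Smoc2 had its brighter probe at 1550 of the transcript. It read -5.34, -5.29, -3.92 and -3.50 in GFP-high, against -1.09, -0.46, -1.64 and -0.50 in GFP-low. Every GFP-low array was well above background and no GFP-high array was, and 3 of the 4 GFP-high values were surrogates. The groups did not overlap, as in 397 of the tested genes in this direction, and since the gene was chosen for this difference nothing is read from it.

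The size of the Smoc2 difference rests on the treatment of values near background. As processed it was -3.59 on the log2 scale, from means of -4.51 ± 0.94 in GFP-high and -0.92 ± 0.56 in GFP-low (SD, n = 4 each). Raising each GFP-high array to its own dimmest measured signal gave a bound of at least 3.17-fold lower in GFP-high. A common floor, at the limit of the array with the highest one, gave -0.77. The normexp model, with its offset, gave -0.65.

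One spot shows how the subtraction acts. On GFP-high replicate 3 the raw mean of the Smoc2 spot was 115.6, close to the 122.4 of GFP-low replicate 3, but the software subtracted a background of 109.9 there. The local background around this spot was 23.5, close to the 20 to 23 of the other GFP-high arrays. The subtracted background was higher than that of 87.3% of the spots of this array. The 115 spots within 5 rows and columns had a median subtracted background of 108.6 and a median raw mean of 134.7, with a lowest raw mean of 81.5. The Smoc2 spot was thus dimmer than the median of its neighbours on an array region with raised signal. Without this array the difference was -3.79 as processed and -0.71 with normexp.

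The second Smoc2 probe, at 1681, was dimmer. It read -5.38, -4.62, -4.04 and -4.72 in GFP-high, against -3.39, -3.83, -1.48 and -3.37 in GFP-low. As processed, all GFP-high values lay below all GFP-low values, but 3 of the 4 GFP-high values were surrogates. Only GFP-low replicate 3 was well above background. The dimmest measured signal of GFP-high replicate 3 was -1.70, above the GFP-low values of -3.39, -3.83 and -3.37. The groups are thus not shown to lie apart with this probe, and nothing is read from their order. The laxer flag took 1 GFP-high and 4 GFP-low arrays. Its difference was -1.67 as processed, -0.31 with normexp and -0.05 with the common floor. The mean over both probes gave -2.63.

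Mab21l2 encodes a protein of the male-abnormal 21 family that mice need for the development of the eye. It read -5.38, -5.31, -3.96 and -4.59 in GFP-high, against 0.62, -0.11, 0.44 and -1.08 in GFP-low. All 4 GFP-high values were surrogates and all 4 GFP-low values were well above background. The raw spot means show the same split without any subtraction: 45.6, 42.8, 52.7 and 52.5 in GFP-high, close to subtracted backgrounds of 45.1, 44.6, 55.5 and 50, against 353.7, 177.1, 364.6 and 124.7 in GFP-low, where the backgrounds were 47.1, 45.8, 46.2 and 52.3.

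For Mab21l2 the GFP-high level is known only from above. The processed difference of -4.78 is mostly a distance to surrogates, from means of -4.81 ± 0.67 in GFP-high and -0.03 ± 0.76 in GFP-low (SD, n = 4 each). The bound was at least 5.87-fold lower in GFP-high. The normexp model gave -1.65 and the common floor -1.66, both smaller in size, and a floor of this kind cannot turn the sign. Within slide 1 the processed difference was -5.60 and within slide 2 it was -3.95. Among the tested genes, 19 (0.148%) were on no GFP-high array well above background, as Mab21l2 and Smoc2 were. As both were chosen for this, the share is given as scale only.

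**Figure D3:**
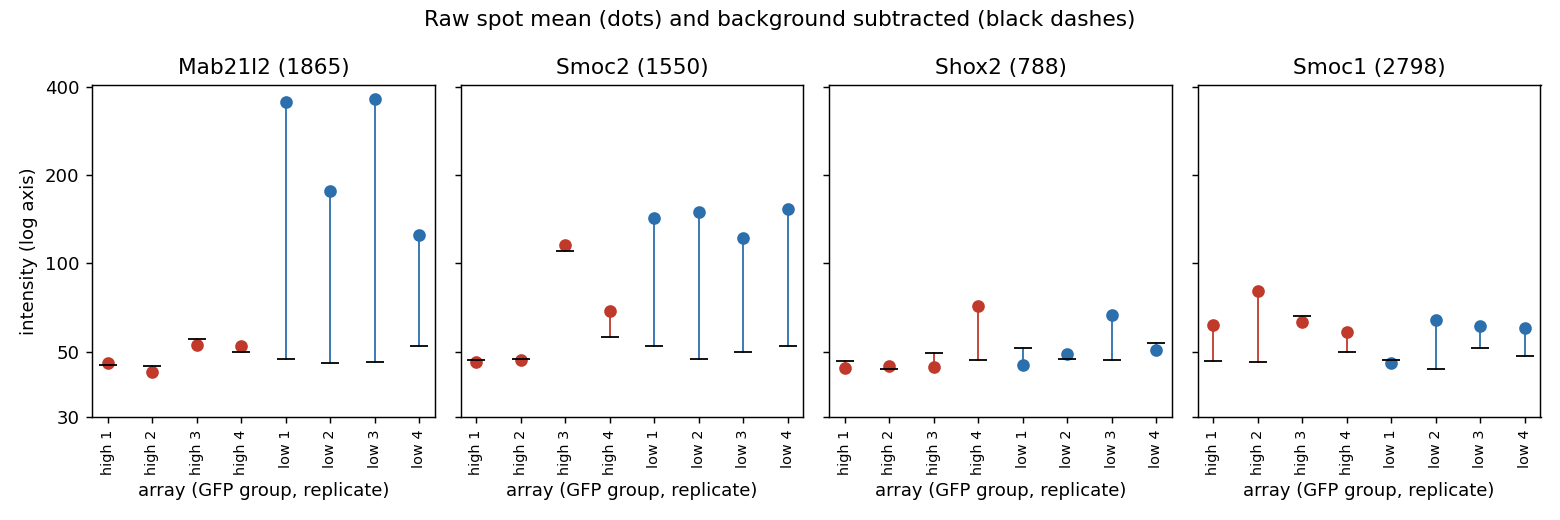
Raw spot mean (dots, GFP-high red and left of GFP-low in blue) and subtracted background (black dashes) in intensity units on a log axis for 1 probe each of Mab21l2, Smoc2, Shox2 and Smoc1 on every array. Mab21l2 sits at its background on the 4 GFP-high arrays and at 124.7 to 364.6 on GFP-low arrays, and the Smoc2 spot of GFP-high replicate 3 reads 115.6 over a subtracted background of 109.9.

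Vsnl1 encodes visinin-like 1, a neuronal calcium sensor protein. Its brighter probe, at 794, was among the well measured ones, with a scanner error of about 10% on every array. It read 1.82, 2.88, 3.44 and 3.72 in GFP-high, against 3.88, 3.41, 3.99 and 3.61 in GFP-low. GFP-high replicates 1 and 2 were below all GFP-low arrays, and replicates 3 and 4 lay within the GFP-low range. The mean was 2.96 ± 0.84 in GFP-high and 3.72 ± 0.26 in GFP-low (SD, n = 4 each).

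The Vsnl1 difference was -0.76 ± 0.42 (log2, SE, limma adjusted p = 0.426), with a 95% interval from -1.71 to 0.19. It did not pass the test. It was -1.30 within slide 1 and -0.22 within slide 2, and with the slide as a block the adjusted p was 0.365. Leaving out GFP-high replicate 1 brought it to -0.38. Since this probe is far above background, normexp (-0.87) and the common floor (-0.76) moved it little.

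The second Vsnl1 probe, at 1428, gave another picture. It read -5.41, -5.0, -3.93 and -0.94 in GFP-high, against 0.56, -1.78, 0.81 and 1.34 in GFP-low. Only GFP-high replicate 4 was well above background among the GFP-high arrays, and this array lay above GFP-low replicate 2, so the groups overlapped. All 4 GFP-low arrays were measured.

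This probe differed by -4.06 ± 1.05 in the fit over all probes one by one (SE, limma adjusted p = 0.20). In that fit 7 of 18482 probes passed (0.0379%). This probe was under an unadjusted p of 0.05 there, as were 2569 of the 18482. Of the GFP-high values 2 were surrogates, and the difference was -1.48 with normexp and -1.76 with the common floor. The mean over both Vsnl1 probes differed by -2.41 (limma adjusted p = 0.20). That mean too was under an unadjusted p of 0.05, as were 1873 of 12875 genes with probes averaged. Both probes were thus lower in the GFP-high mean, and neither passed. Whether the probes differ from each other was not tested.

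Cpne5 encodes a copine, a protein that binds membrane phospholipids in a calcium-dependent way. Its brightest probe, at 2909, read 2.58, 2.33, 1.65 and 3.80 in GFP-high, against 2.25, 1.63, 1.85 and 3.06 in GFP-low. The groups overlapped, and replicate 4 was the highest of its group in each. The level averaged 2.59 ± 0.89 in GFP-high and 2.20 ± 0.63 in GFP-low (SD, n = 4 each).

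The Cpne5 difference was 0.39 ± 0.50 (log2, SE, limma adjusted p = 0.726), with a 95% interval from -0.75 to 1.53. The slides gave 0.51 and 0.27, and the slide as a block left the adjusted p at 0.725. Without GFP-high replicate 4 the difference was -0.012. With normexp it was 0.22, and the common floor left it at 0.39. The probe at 223 read 3.18, 1.02, 1.91 and 2.20 in GFP-high, against 1.13, 0.65, -0.67 and 2.42 in GFP-low. It was measured on all 8 arrays and differed by 1.20 ± 0.69 (limma adjusted p = 0.455), again with overlapping groups. The probe at 3789 held a surrogate on all 8 arrays, while the other 2 Cpne5 probes were well above background on every array. Isl1, Shox2, Smoc1 and Mab21l2 had 1 probe each, so their values could not be set beside a second probe.

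**Figure D4:**
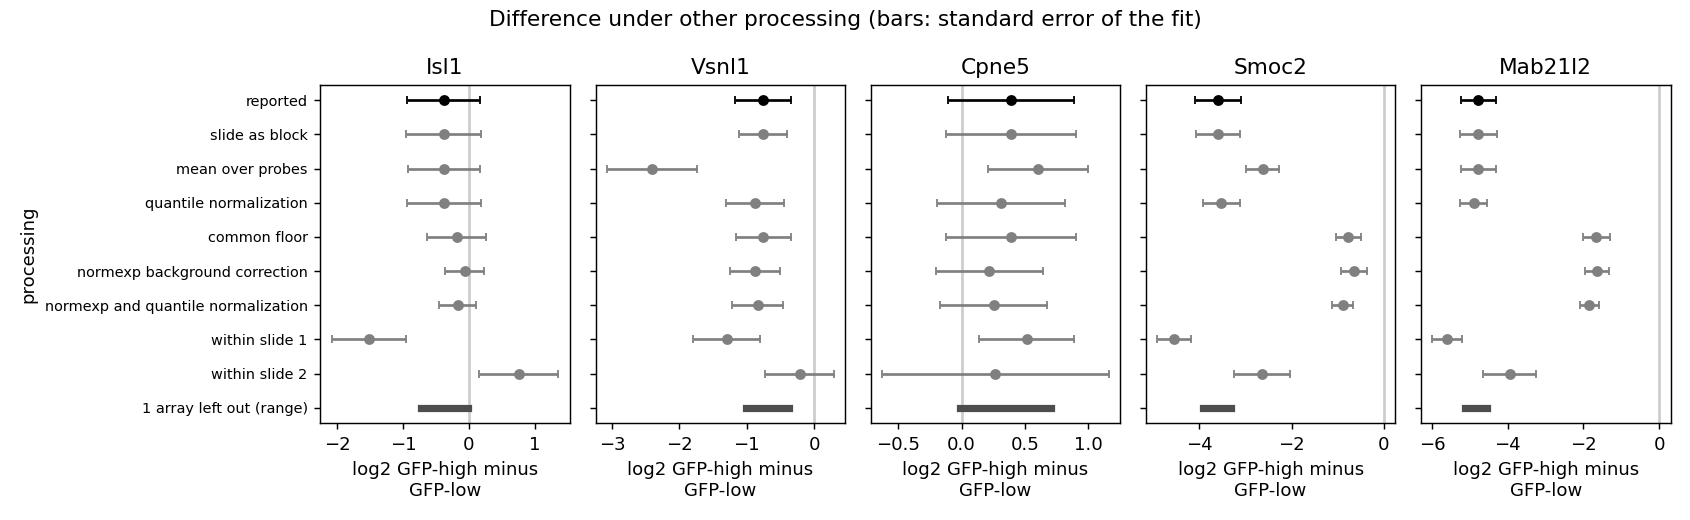
Log2 difference, GFP-high minus GFP-low, of Isl1, Vsnl1, Cpne5, Smoc2 and Mab21l2 as reported (black) and under other processing (grey), with the standard error of each fit as bars and the range over fits without 1 array as the thick line at the bottom. Smoc2 (-3.59) and Mab21l2 (-4.78) move to -0.65 and -1.65 with normexp, and Isl1 lies on opposite sides of 0 within slide 1 (-1.51) and slide 2 (0.75).

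The profile over the 8 arrays can be set beside those of other genes for Isl1, Vsnl1 and Cpne5, which were measured on all of them. Likeness was taken as the root mean square distance between log2 profiles after each gene's mean was removed, over 9015 other genes, with the 3 nearest named. For Isl1 they were Cyrib (0.32), Poglut2 (0.33) and Zfp830 (0.34), against a median distance of 0.97 over all genes. For Vsnl1 they were Mapk9 (0.13), Azin1 (0.20) and a probe with only a clone name (0.24), against a median of 0.89. For Cpne5 they were Anxa4 (0.24), Ldb1 (0.26), which encodes a cofactor of LIM-domain proteins, and a probe with only a clone name (0.26), against a median of 0.80. The 3 nearest of each gene were the closest of these 9015, and the arrays are the same 8 for all. Mapk9, for example, had its lowest levels at GFP-high replicates 1 and 2 (0.51 and 1.37) and its highest at GFP-low replicates 1 and 3 (2.61 and 2.58), the arrays where Vsnl1 was lowest and highest.

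Related genes were read from lists made for this comparison. Of 21 further sinus node and sinus venosus genes 17 were tested, and 1 rose in GFP-high and none fell, where 0.0699% of all tested genes rose and as many fell. An unadjusted p under 0.05 was found for 5 of the 17, and for 14.3% of all tested genes. It was Cacna2d2, which encodes an auxiliary calcium channel subunit, with 4.36 ± 0.23 in GFP-high and 2.48 ± 0.31 in GFP-low (log2 level, SD, n = 4 each) and a difference of 1.87 ± 0.25 (SE, limma adjusted p = 0.0465). Its difference stayed between 1.56 and 1.99 over 22 alternatives. Cacna2d2 passed in only 7 of them and in none of the 8 fits that left out 1 array. Both counts of alternatives, 22 and 7, include the fit on the authors' value table, which held the same intensities and could not differ. Of the 17, 13 differences were positive, with a median of 0.41, against 62.1% positive and a median of 0.16 over all tested genes. The next named members went opposite ways without passing: Rgs6, a regulator of G-protein signalling, differed by 1.51 (adjusted p = 0.384) and the T-box factor Tbx5 by -1.07 (adjusted p = 0.265).

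In the families of the 7 genes no relative passed in limma, and the counts at an unadjusted p under 0.05 below stand against the same 14.3% of all tested genes. Of 6 other osteonectin family genes 4 were tested, with a median of 0.12, and Sparcl1 (-0.73) and Fstl1 (0.42) were the furthest from 0 of those on all arrays. Of 12 other neuronal calcium sensor genes 6 were tested, all with positive differences (median 0.97), as were 62.1% of all tested genes, among them Hpcal1 at 1.22 ± 0.26 (SE, limma adjusted p = 0.152) and Ncs1 at 1.11 (0.463). Of these 6, 1 was under an unadjusted p of 0.05. Vsnl1, with -0.76, had the opposite sign to these 6. Of 8 other copines 4 were tested (median 0.35), with Cpne3 at -0.93 and Cpne1 at 0.09. None of 3 other Mab21 family genes was tested, since they were near background. Of 20 LIM-homeodomain factors and cofactors 7 were tested (median 0.52), with the cofactors Ssbp2 at 0.81 and Ssbp4 at 0.72, and 3 were under an unadjusted p of 0.05. No osteonectin family gene, copine or second heart field gene was. Of 18 second heart field genes 9 were tested and none passed (median 0.23), with Mef2c at -1.13 and Wnt11 at 0.68. All 19 chamber and atrial genes were tested and none passed (5 under an unadjusted p of 0.05, median 0.08), with Sln at 2.10 (adjusted p = 0.104) and Cited1 at -1.61 (adjusted p = 0.0724) as those furthest from 0.

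**Figure D5:**
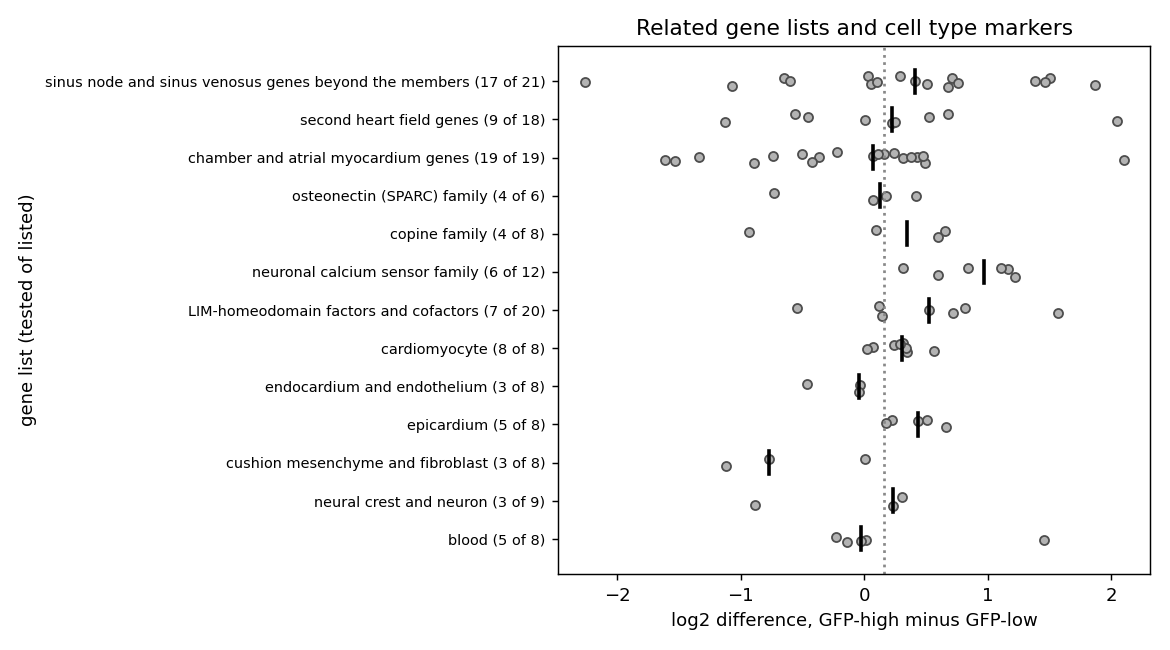
Log2 difference, GFP-high minus GFP-low, of the tested genes (points) of each list of related genes and of cell type markers, with the median of the list as a black line and the median of all tested genes (0.16) as a dotted line. The 17 further sinus node and sinus venosus genes spread from -2.26 to 1.87 around a median of 0.41, and the 6 neuronal calcium sensor genes all lie above 0.

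Markers of cell types that may be present in the sorted pools were read beside these values. The marker sum of a list is in units of the array's 75th percentile. For 8 cardiomyocyte genes this sum overlapped between the groups (2599 to 3953 in GFP-high and 1809 to 3177 in GFP-low). All 8 were tested and had positive differences (median 0.31), against 62.1% positive and a median of 0.16 over all tested genes. No marker of any list passed in limma (1 blood marker was under an unadjusted p of 0.05). Cushion mesenchyme and fibroblast markers, of which 3 of 8 were tested with a median of -0.77, summed to 2.00, 1.45, 3.72 and 1.51 in GFP-high and to 9.73, 1.90, 3.0 and 2.04 in GFP-low. Foregut endoderm markers, of which none of 8 was tested and 5 were measured on no array, summed to 0.35, 0.42, 0.60 and 0.45 in GFP-high and to 7.77, 0.54, 0.27 and 0.33 in GFP-low. In GFP-low only Foxa1, Epcam and Afp were measured, each on 1 array, and in GFP-high only Foxa1, on 2 arrays. The foregut sums thus rest on few genes and do not describe the list as a whole. GFP-low replicate 1 was the highest in both, and it was also the highest array for Isl1 (-0.05) and Mab21l2 (0.62). Without it the Isl1 difference was -0.06 and the Mab21l2 difference -4.56. Mab21l2 read 0.44 on GFP-low replicate 3, where the foregut sum was 0.27 and the cushion mesenchyme and fibroblast sum 3.0. A link between these sums and Mab21l2 was not tested.

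Epicardial markers (5 of 8 tested, median 0.44) summed to 8.07 to 9.43 in GFP-high and 5.45 to 8.40 in GFP-low. Endocardial and endothelial markers (3 of 8 tested, median -0.04) summed to 1.12 to 4.78 in GFP-high and 1.54 to 5.46 in GFP-low. Neural crest and neuron markers (3 of 9 tested, median 0.23) summed to 2.27 to 3.91 in GFP-high and 2.25 to 4.93 in GFP-low. Blood markers (5 of 8 tested, median -0.03) summed to 30.7 to 159 in GFP-high and 13.6 to 137 in GFP-low. Among those on all arrays Lyz2 differed most, by 1.46 ± 0.24 (SE, limma adjusted p = 0.0948), and Hbb-bh1 next, by -0.23. The part of these cells in the values of the 7 genes was not tested.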

How the data were processed

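The deposited files hold spot intensities of 1-colour Agilent arrays. Per the file headers, the authors read the images with Agilent Feature Extraction 10.5.1.1, a version also in the submitters' processing notes, which subtracted background, detrended and set surrogates. The deposited p-values per spot were not used. The authors' value table held the same intensity in all 45018 spots. Each array's log2 signal was set against its 75th percentile over non-control spots. Outlier spots were left out and spots of a probe averaged. The probe with the highest mean stood for a gene. Symbols of 33070 probes came from the RefSeq table of GRCm38.p6, used for names only. Groups were compared with limma 3.58.1 in R 4.3.3 (lmFit, eBayes, Benjamini-Hochberg over 12875 genes, of which 6 had an array missing). The members and the lists were chosen with earlier results of these data known. Named in each list of related genes were genes that passed and the 2 with the largest differences among those on all arrays. Marker lists were read mainly as sums. On simulated arrays with 200 changed genes of 12875, the test recovered 1% of changes of 1 and 38% of changes of 2 on the log2 scale, with 4.88% false calls. The number of arrays limits the precision. Alternatives changed the background correction, scaling, filter, probe rule, slide block and the arrays used.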

Additional observations from a re-analysis of the deposited data

How the results depend on the processing

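Over 23 alternatives the limma adjusted p ran from 0.413 to 0.999 for Isl1, from 0.20 to 0.999 for Vsnl1 and from 0.413 to 0.999 for Cpne5. None passed. The 23 include the fit on the authors' value table, which held the same intensities and could not differ. Leaving out 1 array at a time gave log2 differences from -0.73 to -0.014 for Isl1, -1.01 to -0.38 for Vsnl1, -0.012 to 0.70 for Cpne5, -3.93 to -3.31 for Smoc2 and -5.12 to -4.56 for Mab21l2. Isl1 turned to 0.75 within slide 2, and Cpne5 to -0.012 without GFP-high replicate 4. Smoc2 and Mab21l2 moved to -0.65 and -1.65 with normexp, to -0.90 and -1.85 with normexp and quantile scaling, to -0.77 and -1.66 with a common floor, to -4.54 and -5.60 within slide 1, and to -2.64 and -3.95 within slide 2. Averaging its probes put Smoc2 at -2.63. In a fit chosen after seeing the data, normexp without GFP-high replicate 3, they were -0.71 and -1.52. The laxer detection flag raised the arrays detected to 2 for Shox2, 6 for Smoc1 and 5 for the dimmer Smoc2 probe.

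The 18 genes called over the whole array became 9 with quantile scaling, 42 with the common floor, 11 measured on all 8 arrays, 3 with no filter, 11 with the slide as a block, 7 over all probes and 0 to 7 without 1 array. limma called 0 genes with a filter of 1 array (2055 at an unadjusted p under 0.05), within slide 1 (1570) and within slide 2 (790). With the replicate block it called 0 as well (2381 at an unadjusted p under 0.05), and the differences were unchanged. Same-numbered arrays correlated at 0.114, 0.153, 0.303 and 0.065 in their deviations from the group means, and the highest other correlation was 0.078. Of the 4 pairs 3 were over 0.1, a hint from the data and not from the design. As the fourth was not, and the labels tie no number to a litter or sort, the fit without the block was kept. Cacna2d2 had an adjusted p of 0.148 with the block. The cause of these shifts was not tested. The common floor raises values near background by construction, and the normexp offset shrinks log2 differences between dim signals by construction.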
